A study of Mus musculus with 2 samples.

Results

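The miR-200 family consists of 5 microRNA genes, Mir200b, Mir200a and Mir429 on chromosome 4 and Mir200c and Mir141 on chromosome 6. They were taken by their Ensembl identifiers, with the version dropped, from the 1973 miRNA genes that were counted, and all 5 had a row and passed the minimum of 20 counts. The counts came from microRNA-seq of RNA under 30 nucleotides from mouse intestine (strain B6NCrl, embryonic day 16.5). There were 2 libraries, named as biological replicates of 1 group, each from a pool of healthy male and female embryos. Replicate 2 pooled 41 embryos, and the labels give no number for replicate 1. Whole intestine holds epithelium together with muscle, vessels, nerves and blood, and the embryos carried no stated transgene or treatment. There is thus no treated or mutant group, and what can be compared is the family's genes, its clusters and seed groups, and the replicates.

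MicroRNAs are cut from hairpin transcripts, and bases 2 to 8 of the mature strand, the seed, pair with messenger RNAs that are then repressed. The miR-200 family is known for holding epithelial cells in the epithelial state. Its main known targets, Zeb1 and Zeb2, are transcription factors that switch off E-cadherin and other epithelial genes, and that also repress the miR-200 genes themselves.

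The mature sequences show how the family splits, and they are given first for that reason. In each, the 3p strand is shown 5′ to 3′ as listed in RefSeq on GRCm38.p6, in lower case with the seed in capitals. The first 3 carry one seed and the last 2 the other.
miR-429-3p: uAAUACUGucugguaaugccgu
miR-200c-3p: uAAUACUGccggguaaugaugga
miR-200b-3p: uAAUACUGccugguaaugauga
miR-141-3p: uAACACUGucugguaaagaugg
miR-200a-3p: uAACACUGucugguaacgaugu

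The seeds AAUACUG and AACACUG differ at a single base, written U4C when miR-429 is compared with miR-200a and positions are counted from 1 at the 5′ end. The messenger RNA site that pairs with bases 2 to 8 is CAGUAUU for the first seed and CAGUGUU for the second. Outside the seed, miR-200c differed from miR-200b only by G11U and G22A over the 22 bases compared, and miR-141 differed from miR-200a only by A17C and G22U. The closest relative of each of these 4 miRNAs is thus encoded on the other chromosome. miR-429 was farther from both of its seed partners, with 4 differences from miR-200b and 5 from miR-200c. Among 1738 mature mouse sequences searched, these 5 were the sole carriers of either seed, so the counts of the family cover every listed miRNA with these seeds. No member's 3p sequence was found whole in any other of 1005 hairpins. The longest stretch of a mature sequence present in another hairpin was 16 bases, between miR-141 and miR-200a, and 10 to 12 bases for the others. Multi-mapping reads (26.2% of replicate 1 and 25.7% of replicate 2) are outside all gene counts, and whether any of them came from the family was not tested.

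Both clusters lie on the minus strand, so transcription runs from the higher coordinate to the lower. On chromosome 4 the order is Mir200b (chr4:156055681-156055750), Mir200a (chr4:156054896-156054985) and Mir429 (chr4:156053905-156053987), over a span of 1846 bases of mm10. Gaps of 695 and 908 bases separate these hairpins. All 3 lie within Gm13648, a non-coding transcript on the same strand, and within an intron of the protein-coding gene Ttll10. In Gm13648, Mir200b and Mir200a are intronic, whereas Mir429 lies wholly in an exon. On chromosome 6, Mir200c (chr6:124718322-124718390) precedes Mir141 (chr6:124717914-124717985) by a gap of 336 bases, over a span of 477 bases. Both are intronic in the non-coding RNA Gm15884 on the same strand, and the Mir141 hairpin also overlaps part of an exon of Gm29008.

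The hairpins of the most and the least abundant member of the chromosome 4 cluster show what a gene count contains. Each is given 5′ to 3′ from RefSeq with the 3p mature strand in capitals.
Mir429: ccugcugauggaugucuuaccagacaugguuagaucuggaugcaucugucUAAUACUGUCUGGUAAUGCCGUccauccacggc
Mir200a: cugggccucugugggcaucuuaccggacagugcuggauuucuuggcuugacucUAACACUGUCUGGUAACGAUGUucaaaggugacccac

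The deposited counts are per hairpin and do not separate the 5p from the 3p strand. Grouping by seed therefore takes the reads of a hairpin as 3p reads, the strand known to dominate in this family. The 5p strands group differently: miR-200a-5p and miR-200b-5p share the seed AUCUUAC, and the other members each have a 5p seed of their own.

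The promoter of Gm13648 is shown because Zeb proteins are known to bind E-boxes upstream of this cluster. The window runs from 250 bases before to 50 bases after the RefSeq start site (GRCm38.p6, chr4:156059753-156060052, minus strand), with matches to the E-box CACCTG in capitals.
Gm13648 promoter: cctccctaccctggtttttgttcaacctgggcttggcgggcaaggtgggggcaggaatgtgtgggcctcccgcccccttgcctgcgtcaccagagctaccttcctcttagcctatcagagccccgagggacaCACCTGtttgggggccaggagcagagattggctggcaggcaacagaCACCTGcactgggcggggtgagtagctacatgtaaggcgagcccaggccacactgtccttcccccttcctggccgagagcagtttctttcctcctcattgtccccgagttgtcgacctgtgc

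Both strands were searched, as CACCTG and its reverse complement CAGGTG. There were 2 matches, starting 118 and 72 bases before the start site. Of 32851 promoter windows of 300 bases in the same table, 20.2% held at least 1 match and 2.88% held 2 or more. A match describes the letters of the window. Neither binding nor the primary transcript was measured here, and the promoter of the chromosome 6 host RNA was not searched.

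Levels are given as CPM, counts on the gene's own strand per 1000000 such counts in the library. The own-strand total was 4261976 counts in replicate 1 and 5680764 in replicate 2. Intervals are exact Clopper-Pearson 95% intervals. They cover counting error only, because each is computed within 1 library and holds no variation between pools. PCR duplicates were not marked, so the intervals may be too narrow even for counting error. The mature 3p strands are 22 or 23 bases long, so counts were not divided by length. Ratios between members are ratios of counts, and a difference in how well 2 sequences are ligated or amplified, shared by both libraries, was not measured.

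Together the family held 5.86% of the counts in replicate 1 (interval 5.84 to 5.88%) and 6.25% in replicate 2 (6.23 to 6.27%), a mean of 6.06% ± 0.278 (SD, n = 2). Its genes covered a wide range of levels, with the highest and lowest both in the chromosome 4 cluster. In this bulk tissue, the number of epithelial cells and the RNA per cell cannot be told apart as sources of the family's share.

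Mir429 was the most abundant member, at 24536 CPM in replicate 1 (24389 to 24683) and 27273 CPM in replicate 2 (27139 to 27408). It ranked 9 in each library among the 1973 genes. Mir200c followed at 19400 and 18902 CPM, rank 14 and 15. It was the single member with the lower level in replicate 2. Mir200b reached 9930 and 10663 CPM, rank 23 and 22. Mir141 and Mir200a, which carry the seed AACACUG, were the lowest, and their ranges did not overlap those of the other 3. Mir141 stood at 3008 CPM in replicate 1 (2957 to 3061) and 3757 CPM in replicate 2 (3707 to 3808). Mir200a stood at 1726 CPM (1687 to 1766) and 1937 CPM (1901 to 1974). Reads on the opposite strand numbered 3 per library at Mir200a and 0 at the other members.

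**Figure D1:**
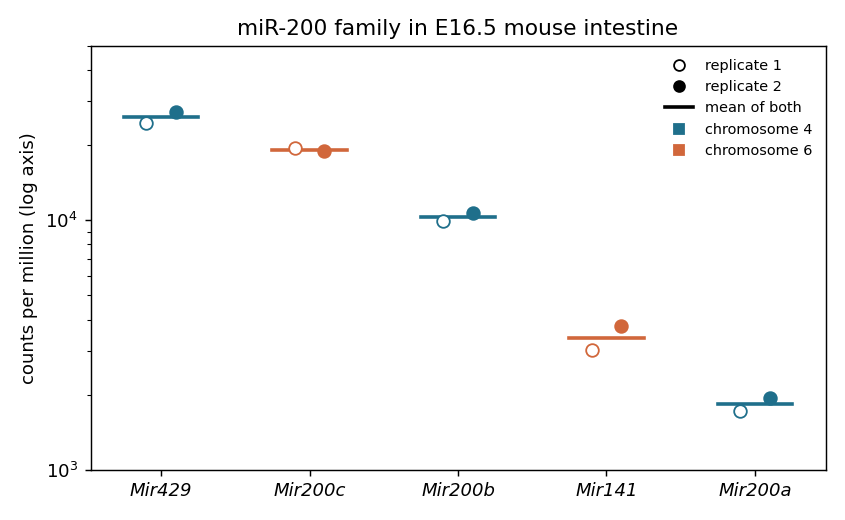
CPM of the 5 miR-200 genes on a log axis. Open circles are replicate 1, filled circles replicate 2 and bars their mean, with blue for chromosome 4 and orange for chromosome 6. The members run from 25905 CPM for Mir429 to 1831 CPM for Mir200a, and no 2 members overlap.

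As means, the order was Mir429 (25905 ± 1936 CPM, n = 2), Mir200c (19151 ± 352), Mir200b (10296 ± 518), Mir141 (3383 ± 530) and Mir200a (1831 ± 150). Each neighbour in this order exceeded the next by more than the replicate SD. The smallest step was from Mir429 to Mir200c, a ratio of counts of 1.35 ± 0.126, and the largest was from Mir200b to Mir141, a ratio of 3.07 ± 0.327. That largest step is the one at which the seed changes. The step from Mir200c to Mir200b was 1.86 ± 0.128 and that from Mir141 to Mir200a was 1.84 ± 0.139. These 2 steps each compare a chromosome 6 gene with its closest relative by sequence on chromosome 4, and in both the chromosome 6 gene was higher.

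Grouped by seed, Mir429, Mir200c and Mir200b held 91.9% of the family's counts in replicate 1 and 90.9% in replicate 2. Mir141 and Mir200a held the other 8.08% and 9.11%. The ratio of the AAUACUG to the AACACUG group was 11.4 in replicate 1 and 9.98 in replicate 2, with a mean of 10.7 ± 0.988. The order was the same within each cluster. On chromosome 4 the AAUACUG members summed to 19.8 ± 0.275 times Mir200a, and on chromosome 6 Mir200c was 5.74 ± 1.00 times Mir141.

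The clusters supplied the seeds in opposite proportions. The chromosome 4 cluster gave 65.4% ± 1.95 of the AAUACUG counts, through Mir429 and Mir200b, but 35.2% ± 1.72 of the AACACUG counts, through Mir200a. Chromosome 6 gave the rest, so Mir141 alone made up 64.8% ± 1.72 of the AACACUG group. Over all members, chromosome 4 held 61.8% of the family's counts in replicate 1 and 63.8% in replicate 2. The ratio of the chromosome 4 to the chromosome 6 cluster was 1.62 and 1.76, a mean of 1.69 ± 0.102. This larger sum rested on Mir429, which made up 42.7% ± 1.23 of the family. Mir200b and Mir200a made up 17.0% ± 0.0749 and 3.02% ± 0.108, less together than the 31.7% ± 2.04 of Mir200c alone.

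**Figure D2:**
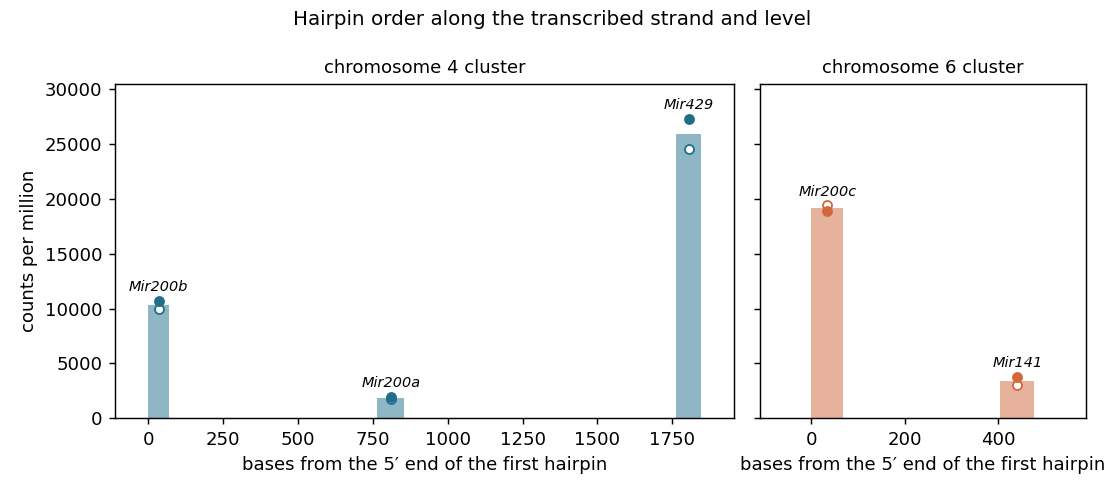
Mean CPM of each hairpin (bar, drawn at hairpin width) against its distance in bases from the 5′ end of the first hairpin of the cluster, along the transcribed strand. Circles are replicates 1 (open) and 2 (filled). The last hairpin is the highest on chromosome 4 (Mir429, 25905 CPM), and the first is the highest on chromosome 6 (Mir200c, 19151 CPM).

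Level did not follow the position of a hairpin in its cluster. On chromosome 4 the last hairpin was the highest and the middle one the lowest, with Mir429 at 14.1 ± 0.0986 times Mir200a. On chromosome 6 the first hairpin was the higher.

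To place the members among other miRNAs, the gene outside the family that was nearest in log2(CPM + 1) over both libraries was found for each. Such a match over 2 libraries describes level and nothing more. Mir429 lay nearest to Mir99a (24178 ± 1876 CPM), and Mir200c nearest to the Hox-linked Mir10b (18860 ± 1028 CPM). Mir98, a let-7 relative, was nearest to Mir200b at 9672 ± 570 CPM. Mir194-1, an intestinal epithelial miRNA, was nearest to Mir141 at 3206 ± 736 CPM, and Mir101b was nearest to Mir200a at 1840 ± 183 CPM.

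A list of 12 other miRNAs known from epithelia was measured beside the family. The list was chosen with earlier results of these data known, so finding its genes is no check on the tissue. All 12 were detected, from Mir802 (475 ± 69.9 CPM) to Mir215 (23894 ± 7648 CPM), where 716 of all 1973 genes had at least 1 count summed. Together the 12 held 6.64% and 7.85% of the counts. The 5 miR-200 genes thus equalled 0.883 of that list in replicate 1 and 0.797 in replicate 2. Only Mir215 and Mir375, an endocrine cell miRNA at 16685 ± 1355 CPM, exceeded Mir200b within the list. Mir192 came next at 7510 ± 8.79 CPM. The 6 genes of a smooth muscle and mesenchyme list held 18.6% and 17.8% of the counts, most of it Mir143, and the family equalled 0.315 and 0.351 of that sum. Numbered copies, such as Mir194-1 and Mir194-2 or Mir199a-1 and Mir199a-2, may be short of multi-mapping reads. Both list sums may therefore be too low beside the family. The 6 neural markers with a row summed to 0.143% and 0.167% of the counts, nearly all of it Mir137 (1421 and 1663 CPM). Mir9-3 had 28 and 23 counts, Mir124a-1 had 0 and 2, and Mir124a-2, Mir124a-3 and Mir9-2 were at 0 in both libraries. The Mir124a and Mir9 genes are numbered copies, and multi-mapping reads are outside these counts. Their low counts therefore do not show that these miRNAs are absent. The 2 pancreas markers summed to 5 and 27 counts, and the hepatocyte miRNA Mir122 stood at 994 and 448 CPM.

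A chosen list of other miRNAs reported to repress Zeb1 or Zeb2 was less abundant as a group than the family. The list of 6 (Mir205, Mir192, Mir215, Mir101a, Mir101b and Mir153) held 2.87% of the counts in replicate 1 and 3.96% in replicate 2, so that the family was 2.04 and 1.58 times as abundant. Mir215, Mir192 and Mir101b (1840 ± 183 CPM) were its highest genes, and Mir153 its lowest (27.9 ± 0.919 CPM). Most of the list's counts were Mir215, at 18486 CPM in replicate 1 and 29302 CPM in replicate 2. The epithelial list shares 3 genes with it, 25% of the epithelial list and 50% of this one.

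The last comparison asks how far the family differed between the pools of embryos. Each of the 364 genes with at least 20 counts summed was compared between the libraries with an exact two-sided binomial test, scaled by TMM (trimmed mean of M-values) and adjusted by Benjamini-Hochberg over all 364. It sets a ratio against counting error only, and compares 2 libraries rather than conditions. All 5 members were higher in replicate 2 and passed, where 51.9% of all genes tested passed, 24.5% as higher in replicate 2 and 27.5% as higher in replicate 1. At counts of this size very small ratios pass, so the number of members past the test says little about the size of a difference.

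The members of the chromosome 4 cluster had closer ratios than the pair on chromosome 6. As log2 ratios of replicate 2 to replicate 1, with counting error (SE), the chromosome 4 members lay close together: Mir200b at 0.23 ± 0.0091, Mir429 at 0.28 ± 0.0058 and Mir200a at 0.30 ± 0.022. The chromosome 6 members held the lowest and the highest values of the family, Mir200c at 0.09 ± 0.0067 and Mir141 at 0.45 ± 0.016. Benjamini-Hochberg adjusted p-values of the exact test were 2.62e-42 for Mir200c and 4.59e-174 for Mir141. The range of the log2 ratios was thus 0.06 within the chromosome 4 cluster and 0.36 within the chromosome 6 cluster. Among the 94 genes at 1000 CPM or more, whose median absolute log2 ratio was 0.14, 3 had a larger absolute ratio than Mir141. For Mir200a, Mir429 and Mir200b these numbers were 19, 21 and 30, and for Mir200c it was 56. No member reached a 1.5-fold difference, whereas 40 of the 364 genes both reached it and passed the test.

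**Figure D3:**
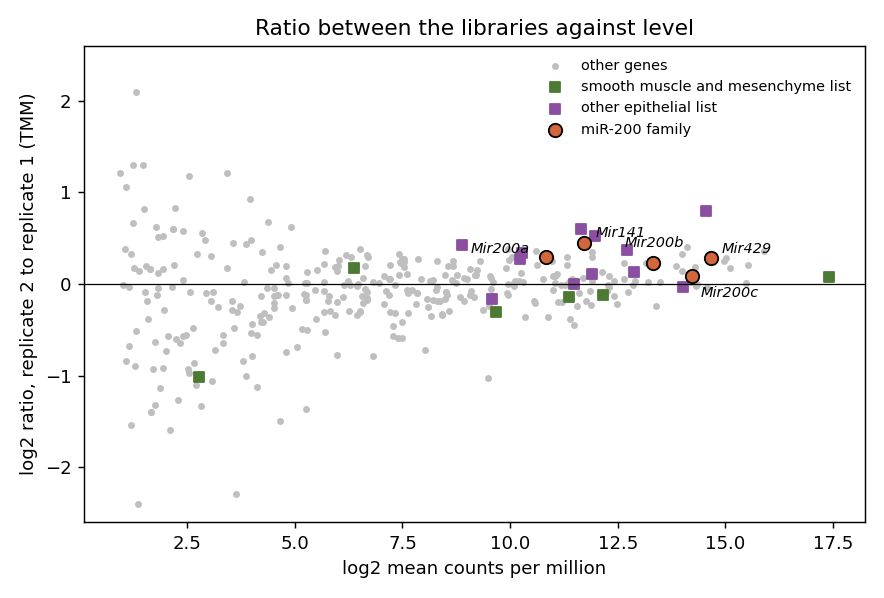
Log2 ratio of replicate 2 to replicate 1 after TMM scaling against log2 mean CPM, 1 point for each of 364 genes. Orange circles are the miR-200 family, purple squares the other epithelial list and green squares the smooth muscle and mesenchyme list. The family lies between 0.09 and 0.45, inside the spread of the other epithelial genes.

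The scaling set part of this. With total counts in place of TMM, all log2 ratios fell by 0.13, and Mir200c turned to -0.038 ± 0.0067 (counting error) and passed as higher in replicate 1. Then 4 members were higher in replicate 2 and 1 in replicate 1, against 12.6% and 45.1% of all genes, with 57.7% past the test in either direction. The other 4 members kept their direction, at 0.10 for Mir200b, 0.15 for Mir429, 0.17 for Mir200a and 0.32 for Mir141.

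**Figure D4:**
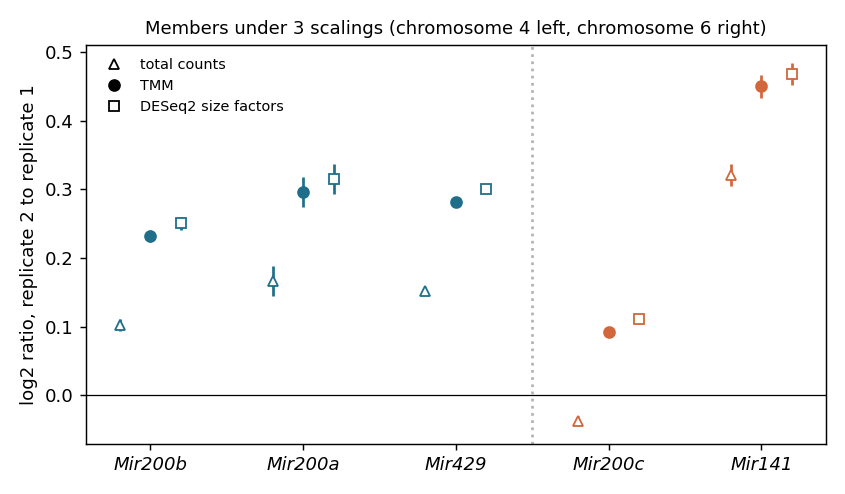
Log2 ratio of replicate 2 to replicate 1 for each member under total counts (triangles), TMM (filled circles) and DESeq2 size factors (squares), with bars for counting error (SE), chromosome 4 left and chromosome 6 right. Mir200c is the single member that changes sign, from 0.09 under TMM to -0.038 under total counts.

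Ratios between genes of a library do not depend on that scaling. The ratio of Mir429 to Mir200a was 14.2 in replicate 1 and 14.1 in replicate 2, and its log2 change of -0.01 was within the counting error of 0.022. Mir429 to Mir200b went from 2.47 to 2.56, a log2 change of 0.05 ± 0.011, and Mir200b to Mir200a from 5.75 to 5.50, a log2 change of -0.06 ± 0.024. Both changes exceeded their counting error. The ratio of Mir200c to Mir141 went from 6.45 to 5.03, a log2 change of -0.36 ± 0.017. The clusters of the intestinal miR-192, miR-194 and miR-215 genes also showed log2 changes, 0.19 ± 0.018 for Mir215 to Mir194-1 and -0.40 ± 0.018 for Mir192 to Mir194-2. Mir194-1 and Mir194-2 are known to encode the same mature miRNA, so their counts may be short of multi-mapping reads. With 2 libraries, the SD of each such ratio is poorly estimated.

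Markers of cell types moved between the libraries as well. For comparison, 24.5% of all 364 genes passed as higher in replicate 2 under TMM and 27.5% as higher in replicate 1. With total counts these shares were 12.6% and 45.1%. Of the 12 other epithelial genes, 9 passed as higher in replicate 2 and 2 as higher in replicate 1, and Mir183 did not pass. They had a median log2 ratio of 0.30 against -0.02 over all 364 genes. The median of the 5 members was 0.28. With total counts these medians were 0.17 and 0.15, against -0.15 over all genes, and 7 of the 12 were higher in replicate 2 and 3 in replicate 1. Of the 6 smooth muscle and mesenchyme genes, 4 passed as higher in replicate 1, Mir143 passed as higher in replicate 2 and Mir199a-2 did not pass. With total counts 5 passed as higher in replicate 1 and none as higher in replicate 2. The summed level of the epithelial list went from 66399 to 78478 CPM, and most of this rise was Mir215 (18486 to 29302 CPM). That of the mesenchyme list, most of it Mir143, went from 185885 to 177948 CPM. CPM are scaled by total counts, where the log2 ratio of the mesenchyme sum was -0.063. Under TMM that ratio was 0.067, so its direction depends on the scaling. Among single markers, the endothelial Mir126a (log2 ratio 0.26) and the neural Mir137 (0.36) also passed as higher in replicate 2. The only other neural marker tested, Mir9-3, lay in the other direction (-0.56, from 28 and 23 counts) and did not pass. The hepatocyte Mir122 (-1.02) and the erythroid Mir451a (-0.30) passed as higher in replicate 1. The other 3 blood markers with a row did not pass under TMM, and with total counts all 4 passed as higher in replicate 1. The pancreas marker Mir217 passed as higher in replicate 2, from 4 and 23 counts. The part of these shifts in the ratios of the family was not tested. Of the 6 other Zeb repressors, 4 passed as higher in replicate 2 and Mir205 as higher in replicate 1, and Mir153 did not pass. Under total counts 2 passed as higher in replicate 2, Mir205 remained higher in replicate 1 and 3 did not pass.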

How the data were processed

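The deposited values are raw counts of reads for each miRNA gene in 3 columns (without regard to strand, own strand, opposite strand). Build mm10 and GENCODE M4 are stated in the readme files. Aligner and counter: not given in the sources used here. Rows that name no gene (unmapped 19.5% and 17.2% of reads, several loci 26.2% and 25.7%, no feature 3.69% and 2.88%) were left out of totals. Own-strand counts held 96.2% and 96.3% of gene counts. Symbols and positions came from GENCODE M21, which holds 1894 of the 1973 identifiers and all 5 members. The identifiers of Mir200b and Mir200c have another version there. RefSeq gives the same positions for all 5.

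One group of 2 libraries gives edgeR's quasi-likelihood test no contrast. The binomial test used TMM effective sizes (edgeR 4.0.16), a threshold of 0.05 and, for log2 ratios, a prior of 0.5 counts. Its code was checked on simulated data that held counting error alone. That check cannot show how the test behaves with variation between pools. Alternatives were DESeq2 1.42.0 size factors, total counts, other count minimums, unstranded counts, other totals, each library alone and, chosen after seeing the data, counts per mature base. Software was R 4.3.3, Python 3.11.15, pandas 2.3.3, numpy 2.4.6, matplotlib 3.10.9 and scipy 1.17.1. The members, the lists and the rule for named genes (all members, the nearest gene to each, the highest 3 of each list, genes of the compared clusters) were chosen with earlier results of these data known. Mir802, Mir153 and the marker genes of other tissues were named after their values were seen. The labels name biological replicates from separate tissue samples.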

Additional observations from a re-analysis of the deposited data

How the results depend on the processing

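The family's share of 6.06% of counts depends on the total: it was 7.33% with the top gene, Mir143, taken out of the total and 3.06% of all reads, those that name no gene included. It stayed within the replicate spread with unstranded counts. So did the ratio of the clusters and that of the seed groups, also with counts per base of the mature strand. Among the member levels, only that of Mir200c moved beyond its replicate spread with unstranded counts, from 19151 to 18441 CPM. All 5 member levels also depended on the total, as the share did. Of the log2 ratios of the members, 1 changed sign, that of Mir200c with total counts (-0.038). The test called 174 to 210 genes over 5 other settings, and 40 of 364 with a 1.5-fold minimum added. With that minimum 0 of 5 members passed, against 5 without it. Leaving out a library leaves no comparison of replicates. Depth did not limit the members, which had at least 7355 counts each. Each SD rests on 2 libraries.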
